A study of Homo sapiens with 12 samples.

Results

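U937 cells that received decitabine (DAC) together with all-trans retinoic acid (ATRA) were compared with U937 cells that received ATRA alone, which shows what DAC did to RNA levels when retinoic acid was present in both arms. The comparison used 6 of the 12 RNA-seq libraries of this cell line, namely ATRA libraries 7, 8 and 9 and DAC + ATRA libraries 10, 11 and 12. Of 197782 transcripts in the table, 19373 transcripts of 12825 gene symbols passed the filter on low values and were tested. The ATRA cells were given 1 µM ATRA, and the DAC + ATRA cells were given 200 nM DAC and 1 µM ATRA. The other 6 libraries came from untreated cells (libraries 1, 2 and 3) and from cells given 200 nM DAC alone (libraries 4, 5 and 6), and they served to measure the response to DAC without ATRA. Per the labels, the treated cells were harvested at 72 h and the untreated cells at 96 h, and all were kept in 20% fetal calf serum with 5 ng/ml GM-CSF. The labels also give 3 days of treatment for every group. The series description gives 1 harvest time for all groups, and the study's methods give another serum concentration and a later start of ATRA than of DAC. Which account holds could not be settled from these sources. U937 is an established human myelomonocytic leukemia cell line. The series description calls the triplicates technical, so the p-values measure the spread between these libraries, which may be technical only.

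DAC is a cytosine analogue that is built into DNA during replication and traps DNA methyltransferases, and daughter strands then stay unmethylated. It is known for reactivating genes with methylated promoters, among them germline genes, and for activating interferon-stimulated genes after retroviral elements are transcribed. ATRA is the ligand of the retinoic acid receptors, which sit on DNA with RXR partners and exchange corepressors for coactivators when the ligand binds. In myeloid leukemia cells it drives granulocytic and monocytic maturation.

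Promoter sequences of 5 genes are shown first, because their letters differ in the features referred to later, namely the number of CpG dinucleotides, where DNA can be methylated, and the letters bound by interferon-activated factors and by E2F factors. Each sequence holds 250 bases before and 50 bases after the transcription start, on the strand of the gene, from RefSeq (GRCh38.p14). DMRTB1 is at chr1:53459149-53459448 (plus strand), TIMP3 at chr22:32801455-32801754 (plus strand) and IL2RA at chr10:6062318-6062617 (minus strand), and in these capitals mark CpG dinucleotides. IFI44L is at chr1:78620198-78620497 (plus strand), where capitals mark 2 matches to the letters of the interferon-stimulated response element, GAAA, any 2 bases and GAAA again, on either strand. MCM6 is at chr2:135876394-135876693 (minus strand), where capitals mark letters of E2F sites (TTTCGCGC, TTTGGCGC or TTTCCCGC on either strand). The 4 E2F matches of MCM6 form pairs that overlap.
DMRTB1: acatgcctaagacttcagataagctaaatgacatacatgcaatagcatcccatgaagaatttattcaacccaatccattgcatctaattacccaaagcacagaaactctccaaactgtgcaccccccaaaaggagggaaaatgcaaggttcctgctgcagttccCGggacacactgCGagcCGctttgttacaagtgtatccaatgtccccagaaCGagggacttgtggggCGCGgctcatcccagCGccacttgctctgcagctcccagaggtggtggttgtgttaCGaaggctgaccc
TIMP3: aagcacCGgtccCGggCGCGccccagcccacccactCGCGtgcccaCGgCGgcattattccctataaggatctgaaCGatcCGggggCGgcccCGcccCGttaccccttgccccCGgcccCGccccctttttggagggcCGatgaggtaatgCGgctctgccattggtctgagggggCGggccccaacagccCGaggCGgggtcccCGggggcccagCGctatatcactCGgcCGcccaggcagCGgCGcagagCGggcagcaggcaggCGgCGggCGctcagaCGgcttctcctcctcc
IL2RA: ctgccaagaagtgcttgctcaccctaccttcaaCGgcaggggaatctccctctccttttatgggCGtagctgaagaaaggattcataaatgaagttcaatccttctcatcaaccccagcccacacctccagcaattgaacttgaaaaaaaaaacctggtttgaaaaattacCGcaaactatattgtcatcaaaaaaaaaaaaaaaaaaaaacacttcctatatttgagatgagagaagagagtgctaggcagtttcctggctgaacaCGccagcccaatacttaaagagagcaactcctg
IFI44L: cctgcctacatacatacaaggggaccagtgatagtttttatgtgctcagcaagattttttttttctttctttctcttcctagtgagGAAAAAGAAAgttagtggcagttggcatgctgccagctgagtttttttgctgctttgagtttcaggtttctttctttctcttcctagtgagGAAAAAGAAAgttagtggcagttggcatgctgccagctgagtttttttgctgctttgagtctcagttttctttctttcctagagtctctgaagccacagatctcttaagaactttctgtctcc
MCM6: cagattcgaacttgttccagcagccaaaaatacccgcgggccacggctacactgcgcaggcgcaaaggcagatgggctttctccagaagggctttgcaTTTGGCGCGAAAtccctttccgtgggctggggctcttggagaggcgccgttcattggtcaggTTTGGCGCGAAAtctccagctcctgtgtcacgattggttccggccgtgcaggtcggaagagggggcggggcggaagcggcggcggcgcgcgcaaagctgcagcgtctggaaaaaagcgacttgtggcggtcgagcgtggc

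The TIMP3 window held 31 CpG dinucleotides, the DMRTB1 window 8 and the IL2RA window 4, while the IFI44L window held 0. All 3 genes with marked CpGs and IFI44L were upregulated by DAC in ATRA-treated cells, and MCM6 was downregulated. Their values are given below.

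Between 8042435 and 10683593 reads were counted per library, and 36.3% to 42.5% of normalized reads were mitochondrial. At this depth 3 reads corresponded to 2.50 to 3.71 normalized reads. The first principal component (70.3% of the variance) separated the libraries with DAC from those without it, the second (11.7%) those with ATRA from those without it, and on the third (3.89%) ATRA library 9 lay apart from ATRA libraries 7 and 8. Of 13 myeloid markers, 11 passed the filter, while PTPRC was at 0 in all 6 libraries and CD14 did not exceed 2.47. The summed myeloid markers ran from 42904 to 60409 in the ATRA libraries and from 36758 to 39459 in the DAC + ATRA libraries. Without MPO, the myeloperoxidase gene, the sums were 16390.3 to 22626 and 22484 to 23924. Markers of hepatocytes and of erythroid cells were at 0 in both groups, and those of T cells and of epithelial cells were at 0 with ATRA and at most 7.41 and 23.2 with DAC + ATRA. Summed B-cell markers, nearly all CD79A, were 229 to 374 with ATRA and 1315 to 1394 with DAC + ATRA, and summed fibroblast markers were 113 to 121 and 396 to 457. In a bulk culture, fewer cells of a type and less RNA per cell cannot be told apart.

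DAC upregulated more transcripts than it downregulated in ATRA-treated cells. Of the 19373 tested transcripts 5688 (29.4%) passed an adjusted p of 0.01 in limma, the test used throughout unless another tool is named. These were 3707 upregulated (19.1%) and 1981 downregulated transcripts (10.2%), from 4903 gene symbols. With scaling by library size 3373 were upregulated and 2399 downregulated. The median log2 fold change was 1.71 over the upregulated transcripts and -0.99 over the downregulated ones, against 0.03 over all tested. A rise of at least 2-fold was reached by 2715 transcripts and one of at least 4-fold by 1607, whereas only 82 of the downregulated transcripts fell by at least 4-fold. For 24 upregulated and 15 downregulated transcripts the ATRA and DAC + ATRA libraries overlapped.

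Many of the upregulated transcripts had been silent under ATRA. Among the tested transcripts, 963 had at most 3 reads in every ATRA library, and 941 of these were upregulated. They could pass the filter only through other groups, mostly those with DAC, so this count describes how far the silent set extended and is not a test. Of the 941, 849 also had at most 3 reads in every untreated library, and 89 reached a mean normalized read count of at least 100 under DAC + ATRA. In the other direction, 40 downregulated transcripts were at 3 reads or fewer in every DAC + ATRA library.

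The largest fold change was that of IGFBP5, which encodes a secreted binding protein of insulin-like growth factors (chr2:216672105-216695549, minus strand, hg38). Its normalized read counts were 6.34, 0.910 and 3.33 in ATRA libraries 7, 8 and 9 and 9685, 12458 and 11669.7 in DAC + ATRA libraries 10, 11 and 12. It rose from almost no reads in any ATRA library to a mean of 11271 with DAC + ATRA, with a log2 fold change of 11.48 ± 0.47 (SE, n = 3 per group, limma adjusted p = 1.01e-08). FSCN1, which encodes the actin-bundling protein fascin, was at 0 in all ATRA libraries and at 782, 872 and 687 under DAC + ATRA, at least 279-fold higher (limma adjusted p = 3.41e-17). CLIC5, a chloride intracellular channel gene, was likewise at 0 and then at 656, 803 and 782, at least 267-fold higher. All 3 genes were high in every DAC + ATRA library, far above the highest ATRA library.

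**Figure D1:**
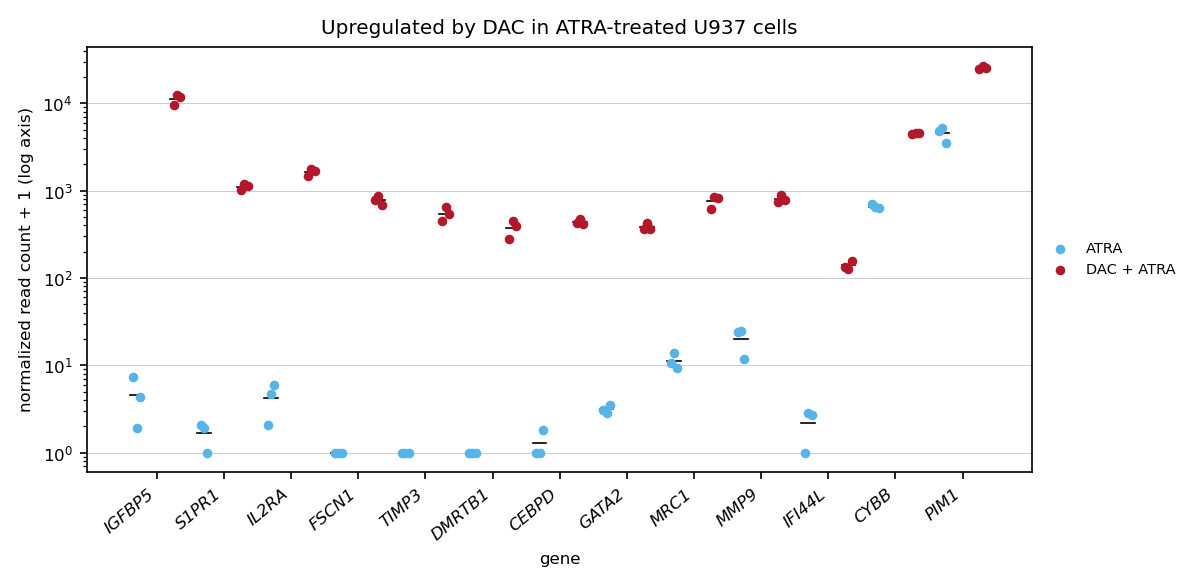
Normalized read count + 1 (log axis) of 13 upregulated genes in each ATRA and DAC + ATRA library, with points for libraries and a bar for the group mean. The groups do not overlap for any of these genes, and FSCN1, TIMP3 and DMRTB1 were at 0 in all 3 ATRA libraries.

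TIMP3, the tissue inhibitor of metalloproteinases whose CpG-dense promoter is printed above, was at 0 in the ATRA libraries and at 453, 641 and 533 under DAC + ATRA, at least 194-fold higher. DMRTB1, a germline transcription factor gene, went from 0 to 280.3, 442 and 388, at least 132-fold higher. TNFRSF10A, which encodes the death receptor for TRAIL, went from 0 to 337, 372 and 402, also at least 132-fold higher. All 3 had adjusted p-values of at most 2.27e-18 in limma, and each was at 0 in untreated cells too. RHOXF2, a homeobox gene of the germline on the X chromosome, went from 0 to 351, 449 and 415 and was at least 145-fold higher, and the RHOXF2 copies are nearly identical, so its reads cannot be assigned with certainty. The same holds for the testis tubulins TUBA3E (at least 235-fold higher) and TUBA3D.

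S1PR1, a receptor of sphingosine-1-phosphate, had 2 reads in the 3 ATRA libraries together and 1012, 1204 and 1116 normalized reads under DAC + ATRA, a ratio of 1794 (95% exact counting interval 496 to 14819). CEBPD, a myeloid transcription factor gene of the C/EBP family, had 1 read with ATRA and 429, 474 and 416 normalized reads with DAC + ATRA, a ratio of 1429 (256 to 56487). Such intervals cover counting error only. ENDOD1 and LINC01413 also went from 2 and 3 reads in total to means of 705 and 520.1 normalized reads. IL2RA, the alpha chain of the interleukin-2 receptor, whose promoter above has few CpGs, rose from 1.06, 3.64 and 4.99 to 1469, 1765 and 1666, a log2 fold change of 8.72 ± 0.35 (limma adjusted p = 4.84e-15).

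In normalized reads rather than in folds, the largest rises included IGFBP5 (above) and genes that ATRA-treated cells already expressed. PIM1, which encodes a survival kinase, had 4809, 5252 and 3494 reads with ATRA and 24628, 26519 and 25063 with DAC + ATRA, a log2 fold change of 2.51 ± 0.11 (limma adjusted p = 2.86e-15). MESDC1 rose from a mean of 4002 to 14671, the carboxypeptidase-like CPXM1 from 4216 to 14602, and MYH9, a nonmuscle myosin heavy chain, from 28216 to 49066. THBD, the thrombin receptor thrombomodulin, rose from 10714, 11454 and 9389 to 20898, 25738 and 22830.2 (log2 fold change 1.14 ± 0.16, limma adjusted p = 1.17e-05). MT-CYB, the mitochondrial cytochrome b, rose from a mean of 109588 to 142674 (log2 fold change 0.39), and without DAC + ATRA library 11 its adjusted p in limma was 0.0116.

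Nearly all tested cancer/testis and germline genes rose. Of 64 listed genes 17 passed the filter, and 15 of these were upregulated and 0 downregulated, against 19.1% and 10.2% of all tested transcripts, with a median log2 fold change of 4.53, or 3.97 when the 6 members at 0 under ATRA are set to their lower bound. Members silent in all groups did not pass the filter, so the count is tied to expression after DAC. The shares of 19.1% and 10.2%, here and for the lists below, are over transcripts of all types. The lists count only the transcript with the highest mean of each symbol. Of 12524 symbols with a promoter window, 3053 rose and 1416 fell. Of protein-coding transcripts 26.1% rose and 8.78% fell. Against 26.1%, rises in a list stand out less than against 19.1%. DAZL, an RNA-binding protein of germ cells, was at 0 in the ATRA libraries and at 217, 269 and 311 with DAC + ATRA, at least 95.0-fold higher. MAGEC2 rose from 4.22, 4.55 and 8.32 to 203, 214 and 232, and MAGEB2, which ATRA-treated cells expressed at a low level, from 50.7, 36.4 and 19.1 to 762, 877 and 829. The piRNA pathway genes PIWIL2 and TDRD12 had means of 3.93 and 2.45 with ATRA and of 91.3 and 87.9 with DAC + ATRA. TEX19 was the highest member under ATRA (mean 97.9) and had 84.6 with DAC + ATRA, which did not pass (limma adjusted p = 0.356). MAGE genes resemble each other closely, so reads of single members are uncertain.

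Among 32 imprinted genes 16 were tested, of which 7 rose and 0 fell (median log2 fold change 0.50), or 8 and 1 without ATRA library 9, against 19.1% and 10.2% of all tested transcripts. MEG3, a maternally expressed long noncoding RNA, was at 0 with ATRA and at 141, 121 and 135 with DAC + ATRA, at least 47.3-fold higher, and NAP1L5 was at 0 and then at 22.6, 28.4 and 30.9. IGF2R, the receptor that clears insulin-like growth factor 2, was expressed throughout and rose from a mean of 6198 to 12880.4. DLK1, which lies next to MEG3, had means of 119 and 131 and did not pass.

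Interferon-stimulated effector genes were mostly higher with DAC + ATRA than with ATRA. Of 44 listed members 32 were tested, of which 22 rose and 1 fell, against 19.1% and 10.2% of all tested transcripts, with a median log2 fold change of 1.46. OAS3, which makes the second messenger that activates RNase L, had 3222, 2991 and 3000.4 reads with ATRA and 7771, 8706 and 9024 with DAC + ATRA (log2 fold change 1.47 ± 0.09, limma adjusted p = 6.59e-13). OAS1 rose further, from 68.6, 69.2 and 57.4 to 778, 767 and 895. IFI44L, whose promoter with interferon response letters is shown above, rose from 0, 1.82 and 1.66 to 131, 126 and 157. IFIT5, an RNA-binding antiviral protein gene, rose from a mean of 229 to 1701, and RSAD2, which encodes viperin, from 148 to 767. The exception was USP18, which removes ISG15 from proteins and damps the receptor: it fell from 1695, 1627 and 1353 to 1069, 1308 and 1202, a call that was lost without ATRA library 7 or 8 or DAC + ATRA library 10 or 12 (limma adjusted p up to 0.0433). MX2 (291 and 224), TRIM22 (749 and 787) and BST2 (825 and 964) did not pass.

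Sensing and signalling genes lie upstream of these effectors. Of 31 listed 25 were tested, of which 14 rose and 0 fell, against 19.1% and 10.2% of all tested transcripts, with a median log2 fold change of 0.65. DDX58, which encodes the cytosolic RNA sensor RIG-I, had 4.22, 7.28 and 5.83 reads with ATRA and 25.3, 32.6 and 23.5 with DAC + ATRA (log2 fold change 2.07 ± 0.34, limma adjusted p = 2.04e-05). IFIH1, which encodes the RNA sensor MDA5, rose from 193, 189 and 168 to 464, 566 and 612. For MAVS, the adaptor of both sensors, 22.2, 31.9 and 23.3 reads with ATRA stood against 33.5, 40.0 and 39.5, which did not pass (limma adjusted p = 0.0764). The transcription factors IRF1 (338 to 694), IRF9 (44.2 to 162) and STAT2 (214 to 343) rose, while the adaptor TMEM173 (5361 and 5716) and IRF3 (47.5 and 52.6) did not pass. SOCS1, a feedback inhibitor of cytokine receptors, rose from 14.8, 16.4 and 5.83 to 185, 194 and 189, and its call was lost with a pseudocount of 0.1.

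Of 7 guanylate-binding protein genes 4 were tested: GBP1, GBP4 and GBP5 rose and GBP3 (means of 21.4 and 20.7) did not pass. Of all tested transcripts 19.1% rose and 10.2% fell. GBP4 went from 8.45, 13.7 and 9.16 to 174, 179 and 235, a log2 fold change of 4.12 ± 0.43 (limma adjusted p = 1.38e-08). GBP5, read here from a transcript with a retained intron, rose from 777, 761 and 771 to 1522, 1478 and 1526. All 4 tested genes of MHC class II presentation (of 15 listed) rose, against 19.1% of all tested transcripts. Among them was CIITA, the coactivator that switches this pathway on, which rose from a mean of 5.42 to 64.4. HLA-DRB1 and HLA-DRB5 rose from 101 to 435 and from 157 to 506, and these copies share so much sequence that their reads are uncertain. Of 10 tested class I genes (of 18 listed) 2 rose and 0 fell. For a rise the share was 19.1% of all tested transcripts and 26.1% of protein-coding ones. The peptide transporter TAP1 (34.6 to 105) was among those that rose, while B2M (28.0 and 43.2) and HLA-B (27.0 and 34.2) did not pass. Summed B-cell markers were higher in the same libraries (above), and their part in the class II values was not tested.

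Among genes of the retinoid pathway, the enzyme that clears ATRA rose furthest. Of 28 listed 17 were tested, of which 8 rose and 1 fell (7 and 0 without ATRA library 9), against 19.1% and 10.2% of all tested transcripts, with a median log2 fold change of 0.59. The one that fell was DHRS9, whose call was lost without any 1 of the ATRA or DAC + ATRA libraries (limma adjusted p up to 0.0311). CYP26A1, the enzyme that degrades retinoic acid and a direct receptor target (chr10:93073893-93077885, plus strand), had 6.34, 4.55 and 0.832 reads with ATRA and 516, 604 and 437 with DAC + ATRA, a log2 fold change of 6.94 ± 0.50 (limma adjusted p = 1.90e-11). Its relative CYP26C1 had 3 reads in all ATRA libraries together and a mean of 19.2 with DAC + ATRA. TGM2, the tissue transglutaminase induced by retinoids, rose from 2.11, 3.64 and 1.66 to 75.0, 80.0 and 96.4. HIC1, a transcriptional repressor gene often methylated in tumors, was already at 213, 186 and 164 with ATRA and rose to 533, 623 and 596 (log2 fold change 1.64 ± 0.20, limma adjusted p = 3.36e-07). The receptor RARA rose from 193 to 542. RXRA, its partner, rose from 2421 to 3305 in a transcript without a defined coding sequence, and without DAC + ATRA library 11 its adjusted p in limma was 0.0184. DHRS3, which returns retinal to retinol, had means of 4664 and 5417, and CD38, a classical ATRA target, 9402 and 7617, and neither passed.

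Granule genes moved in both directions. Of 20 listed 9 were tested, of which 5 rose and 3 fell, against 19.1% and 10.2% of all tested transcripts. The azurophil granule gene MPO, which encodes myeloperoxidase, fell from 35327, 37516 and 26256 to 15267, 15452 and 14199 (log2 fold change -1.13 ± 0.15, limma adjusted p = 1.44e-05). RNASE2 and RNASE3, the eosinophil-type ribonucleases, fell as well, from means of 2994 and 397 to 1545 and 218. LYZ, lysozyme, rose from 181, 214 and 142 to 954, 1160.0 and 1178 (log2 fold change 2.62 ± 0.15, limma adjusted p = 2.09e-13). CAMP, the cathelicidin of secondary granules, rose from 16.9, 11.8 and 6.66 to 193, 205 and 204, MMP9 from 23.2, 23.7 and 10.8 to 749, 898 and 769.9, and BPI from a mean of 2.06 to 94.8. MPO is one of the summed myeloid markers given above.

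Surface receptors of monocytes and macrophages rose in 11 of 17 tested genes (30 listed) and fell in 2, or 12 and 1 without ATRA library 9, against 19.1% and 10.2% of all tested transcripts. MRC1, the mannose receptor of macrophages, rose from 9.50, 12.7 and 8.32 to 617, 838 and 822 (log2 fold change 6.09 ± 0.24, limma adjusted p = 3.37e-14). C5AR1, the complement C5a receptor, rose from 91.9, 90.1 and 87.4 to 608, 687 and 633, and ITGAM, the CD11b integrin chain, from a mean of 1002 to 2725. CSF3R, the G-CSF receptor, fell from 429.8, 379 and 591 to 251, 211 and 225, but its call was lost without ATRA library 7 or 9 or DAC + ATRA library 11 or 12 (limma adjusted p up to 0.0486). FCGR1A (139 and 132) and CD33 (809 and 760.1) did not pass. In the phagocyte oxidase and S100 list 3 of 8 tested genes (13 listed) rose and 0 fell, or 2 and 0 without ATRA library 9, against 19.1% and 10.2% of all tested transcripts. Those that rose were CYBB, the catalytic oxidase subunit, from 694, 642 and 628 to 4489, 4522 and 4579.9, S100A9 from a mean of 974 to 5235, and S100A6, from 6.45 to 17.4. The call of S100A6 was lost without ATRA library 8 or 9 or DAC + ATRA library 10 or 11 (limma adjusted p up to 0.0448).

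Of 20 tested cytokine, chemokine and receptor genes (37 listed), 14 rose and 0 fell, against 19.1% and 10.2% of all tested transcripts (median log2 fold change 1.51). Without ATRA library 9, 12 rose and 0 fell (median 1.24). The interferon-induced chemokines CXCL9, CXCL10 and CXCL11 rose from means of 0.629, 6.0 and 2.22 to 13.8, 45.4 and 39.7. IL1A rose from 16.9, 14.6 and 5.83 to 135, 153 and 151, and CXCL8, a neutrophil attractant, from 299, 208 and 166 to 514, 592 and 779. IL7R, the interleukin-7 receptor chain, rose from 475, 355 and 346 to 1251, 1319 and 1395. CXCR1, a receptor of CXCL8, had 1 read in the ATRA libraries and 57.9, 69.5 and 55.6 normalized reads with DAC + ATRA. Its paralog CXCR2 had means of 599.7 and 495 and did not pass.

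Transcription factors of blood cells rose in 16 of 32 tested genes (40 listed) and fell in 3, or 12 and 3 without ATRA library 9. Of all tested transcripts 19.1% rose and 10.2% fell, and of protein-coding ones 26.1% and 8.78%, so that the falls are near these shares. KLF2, a zinc finger factor of quiescent lymphocytes and monocytes, rose from 10.6, 18.2 and 6.66 to 746, 896 and 692 (log2 fold change 6.02 ± 0.31, limma adjusted p = 2.51e-12). JUN, a subunit of AP-1, rose from 784, 889 and 593 to 3068, 3759 and 3386. The granulocytic and monocytic masters CEBPA (12596 and 12930.1), CEBPB (2649 and 2551) and SPI1 (159.8 and 118) did not pass. The 3 that fell were MEIS1, the HOX cofactor of leukemia stem cells, from 743, 675 and 1019 to 328, 307 and 329, the repressor GFI1, from a mean of 145 to 63.2, and the repressor ZEB2, from 175 to 76.2. GATA2, the GATA factor of stem, mast and megakaryocytic cells, rose from 2.11, 1.82 and 2.50 to 361, 422 and 361 (log2 fold change 6.93 ± 0.20, limma adjusted p = 3.73e-19). In the list of erythroid, mast cell and GATA genes 8 of 15 tested members (33 listed) rose and 3 fell, against 19.1% and 10.2% of all tested transcripts, and ITGA2B, the platelet integrin chain, was among those that rose (27.1 to 103). KIT, the stem cell factor receptor, fell from 48.6, 50.1 and 59.9 to 14.5, 17.9 and 22.2. The erythroid markers HBB and ALAS2 were at 0 in both groups.

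Among growth arrest and damage response genes, 8 of 24 tested (34 listed) rose and 2 fell, or 7 and 1 without ATRA library 9, against 19.1% and 10.2% of all tested transcripts. CDKN2B, an inhibitor of CDK4 and CDK6, rose from 7.39, 5.46 and 8.32 to 174, 177 and 201, and its neighbour CDKN2A from a mean of 12.3 to 68.9. The antiproliferative gene BTG2 rose from a mean of 361 to 1700.0. CDKN1A, which encodes p21, had means of 9.62 and 10.6, and MDM2 50.2 and 65.7, and neither passed. In the BCL2 and caspase list, 8 of 19 tested (30 listed) rose and 2 fell, or 5 and 2 without ATRA library 9, against 19.1% and 10.2% of all tested transcripts. BCL2, the antiapoptotic founder of the family, fell from 4162, 3583 and 3421 to 1410.3, 1528 and 1641 (log2 fold change -1.28 ± 0.12, limma adjusted p = 2.12e-09), and CASP2 from a mean of 135 to 62.8. CASP9 rose from 74.4 to 149 and the inhibitor gene BIRC3 from 14.9 to 42.9.

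Many DNA replication genes fell. Of 40 listed 31 were tested, of which 20 were downregulated and 0 upregulated, and the median log2 fold change was -0.91. For a fall the share was 10.2% of all tested transcripts and 8.78% of protein-coding ones. MCM6, a subunit of the replicative helicase whose promoter is printed above, fell from 8217, 7656 and 6658 to 3419, 3781 and 3578 (log2 fold change -1.06 ± 0.10, limma adjusted p = 1.94e-09). GINS2, a cofactor of this helicase, fell from 2983, 2897 and 2382 to 1134, 1217 and 1137. E2F1, the factor that switches such genes on, fell from a mean of 3577 to 1760.4. For all 3 genes every DAC + ATRA library lay below every ATRA library. The catalytic subunit of the leading-strand polymerase, POLE (59.2 and 75.1 in a transcript subject to nonsense-mediated decay), and the RPA subunits RPA1 (157 and 142) and RPA2 (191 and 169) did not pass.

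Of 36 mitotic genes 23 were tested, of which 4 fell (CDK1, a kinase that starts mitosis, the checkpoint gene MAD2L1 and the motor genes KIF11 and KIF23) and 0 rose, against 10.2% and 19.1% of all tested transcripts, with a median log2 fold change of -0.42. TOP2A, topoisomerase II alpha, had 18748, 14957 and 15734 reads with ATRA and 12699, 14598 and 14289.5 with DAC + ATRA, which did not pass (limma adjusted p = 0.0407), and the values were lower in all 3 DAC + ATRA libraries. The kinetochore genes NDC80 (2191 and 2205) and CENPF (11369.7 and 10077) did not pass either. KIF23 was read from a transcript with a retained intron, and the call of CDK1 was lost without ATRA library 7 or DAC + ATRA library 11 (limma adjusted p up to 0.0169).

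**Figure D2:**
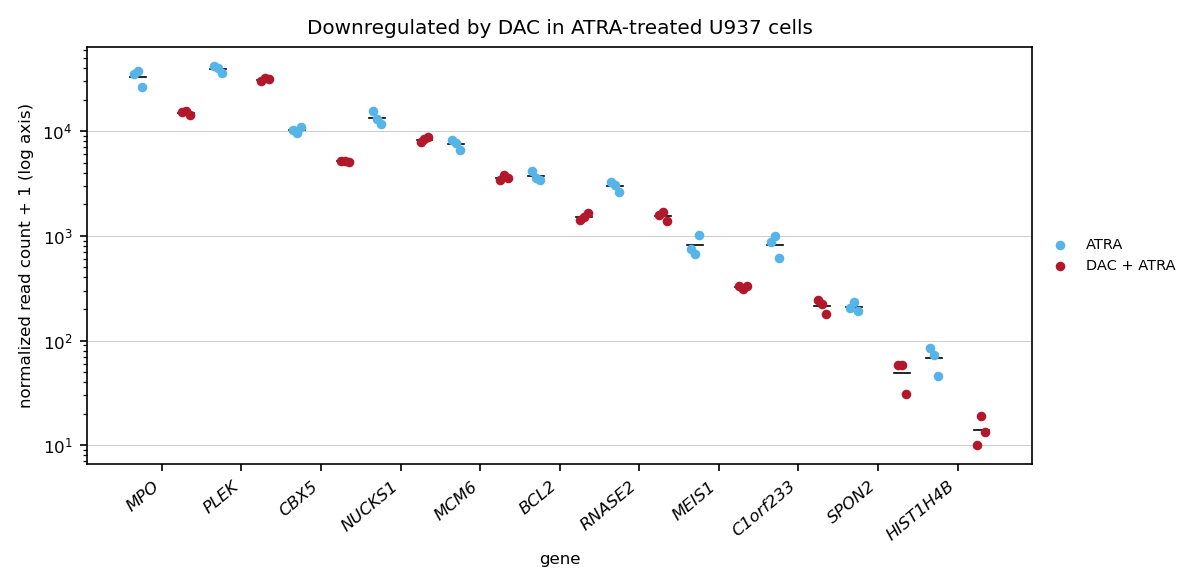
Normalized read count + 1 (log axis) of 11 downregulated genes in each ATRA and DAC + ATRA library, with points for libraries and a bar for the group mean. MPO fell from a mean of 33033 to 14973 and BCL2 from 3722 to 1527, and the groups do not overlap for any gene shown.

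In normalized reads the largest falls were in MPO (above), then in genes of diverse function that stayed abundant. CBX5, which encodes the heterochromatin protein HP1 alpha, fell from 10316, 9587 and 10861 to 5202, 5137 and 5124 (log2 fold change -0.99 ± 0.09, limma adjusted p = 6.57e-10). NUCKS1 fell from a mean of 13452 to 8304, NOTCH2 from 11014 to 6854 and the succinate receptor gene SUCNR1 from 14561 to 9861. SLC7A5, a transporter of large neutral amino acids, went from 12854, 16097 and 7768 to 5414, 6142 and 4972, and PLEK, the platelet and leukocyte protein pleckstrin, from 41969, 40015 and 35907 to 30078, 31865 and 31487, and both calls were lost without ATRA library 7 or 8 or DAC + ATRA library 10 or 12 (limma adjusted p up to 0.031 and 0.0236). The call of SLC7A5 was also lost without any 1 of the untreated libraries, which share the estimate of spread, and that of PLEK without DAC + ATRA library 11. Among the largest fold changes downward were SPON2, an extracellular matrix protein gene, from 205, 231 and 191 to 57.0, 56.8 and 29.7, C1orf233 from 865, 991 and 610.1 to 244, 224 and 177, and the noncoding RP11-547C5.1 from 101, 106 and 108 to 15.4, 16.8 and 18.5 (log2 fold change -2.57 ± 0.21).

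Of 74 tested cytosolic ribosomal protein genes (85 listed), 20 fell and 2 rose, against 10.2% and 19.1% of all tested transcripts, with a median log2 fold change of -0.36 and -0.41 under edgeR with TMM scaling. RPL22 fell from 2618, 2251 and 2197 to 1413, 1453 and 1577. Those that rose included the germline retrogene RPL10L, at 0 with ATRA and at 22.8 on average with DAC + ATRA. Translation initiation factors fell in 6 and rose in 2 of 32 tested genes (40 listed), against 10.2% and 19.1% of all tested transcripts, and EEF2, the elongation factor, had means of 84775 and 80379.6, which did not pass. Among genes of amino acid stress 4 of 19 tested (22 listed) rose and 6 fell. Of all tested transcripts 19.1% rose and 10.2% fell, and of protein-coding ones 26.1% and 8.78%. The serine synthesis genes PSAT1 and PHGDH fell from means of 579 and 108 to 302 and 43.8, while STC2, a secreted glycoprotein gene, rose from 26.1 to 358.

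The DNA methylation machinery and the genes that handle DAC had a median log2 fold change of -0.04, with 2 of 16 tested genes (26 listed) up and 3 down, against 19.1% and 10.2% of all tested transcripts. DNMT1, the maintenance methyltransferase and target of DAC, was read from a transcript with a retained intron, which fell from 158, 151 and 205 to 75.9, 75.8 and 69.2 (log2 fold change -1.20 ± 0.16, limma adjusted p = 1.34e-06). DNMT3A, a de novo methyltransferase, had 2640.0, 2717 and 2633 reads with ATRA and 2832, 2737 and 2714 with DAC + ATRA, which did not pass (limma adjusted p = 0.701). SAMHD1, which hydrolyses deoxynucleotide triphosphates including that of DAC, rose from 428, 445 and 440.3 to 1283, 1326 and 1328. Among histone demethylases, deacetylases and Polycomb genes 7 of 28 tested genes (30 listed) rose and 3 fell. These counts are near the shares of protein-coding transcripts (26.1% and 8.78%), while those of all tested transcripts were 19.1% and 10.2%. KDM6B, which removes the Polycomb mark, rose from a mean of 94.1 to 273, and EED, which reads it, fell from 41.9 to 16.5 in a transcript with a retained intron.

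Matrix and adhesion genes rose in 12 of 20 tested genes (33 listed) and fell in 4, against 19.1% and 10.2% of all tested transcripts. Beside IGFBP5, TIMP3 and MMP9, these included MMP14, a membrane-bound protease, which rose from 26.4, 45.5 and 56.6 to 556, 735 and 618, and the matrix protein THBS1, from 14.8, 10.9 and 3.33 to 203, 248 and 252. IGFBP7 fell from a mean of 24.6 to 7.89. The fibroblast markers COL1A1 and PDGFRB were higher in the same libraries, at 48.6 to 54.6 and 64.1 to 70.8 with ATRA and at 126 to 163 and 268 to 309 with DAC + ATRA, while COL1A2 did not exceed 2.71, and their part in this result was not tested.

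Genes derived from retroviruses rose in 5 of 9 tested cases (23 listed), and 0 fell, against 19.1% and 10.2% of all tested transcripts. ERV3-1, an endogenous retroviral envelope gene, had 2623, 2449.6 and 2828 reads with ATRA and 5462, 5657 and 5803 with DAC + ATRA (log2 fold change 1.10 ± 0.09, limma adjusted p = 4.98e-10). ZNF117, which overlaps it on the same strand, rose from 431, 334 and 434 to 980.0, 977 and 959, and reads of the 2 genes may not be fully separable. ERVH48-1 was at 0 with ATRA and at 47.9, 42.1 and 39.5 with DAC + ATRA, at least 15.4-fold higher. ERVK3-1 had means of 662 and 711 and did not pass.

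**Figure D3:**
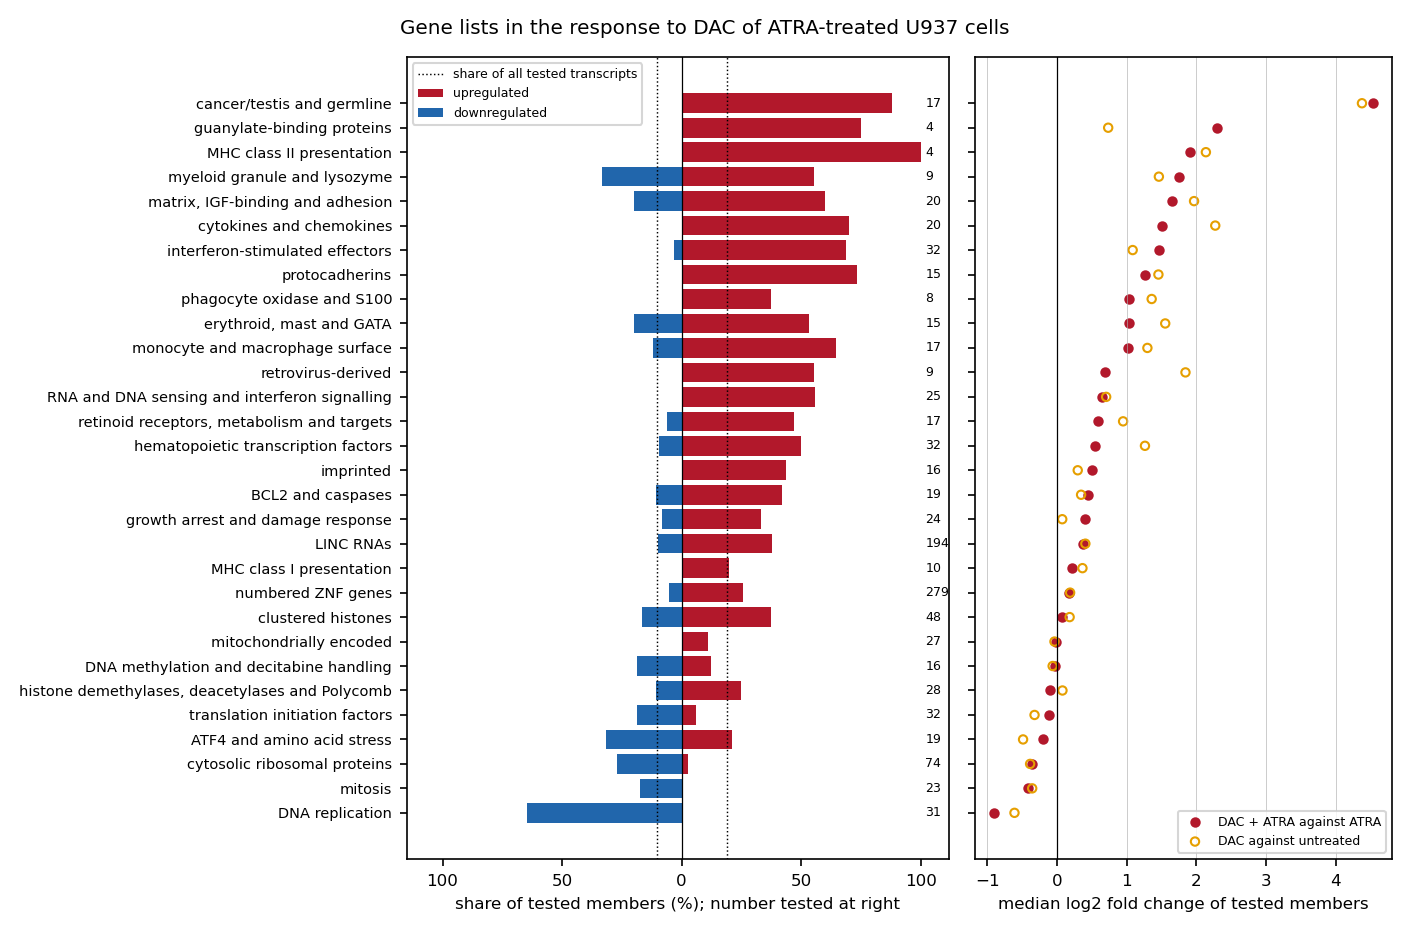
Left: share of the tested members of each gene list that was upregulated (red, to the right) or downregulated (blue, to the left) by DAC in ATRA-treated cells, with the shares of all tested transcripts (19.1% and 10.2%) as dotted lines. The dotted lines cover transcripts of all types, and those of protein-coding transcripts would lie at 26.1% and 8.78%. Right: median log2 fold change of each list with ATRA (filled) and without ATRA (open), from 4.53 for cancer/testis and germline genes to -0.91 for DNA replication genes.

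Promoters of upregulated genes had fewer CpG dinucleotides for their base composition than those of the other genes. Windows of 300 bases at the start of the tested transcript were read from hg38 for 12524 of 12825 symbols (97.7%). The median ratio of observed to expected CpGs was 0.72 over all tested genes, 0.66 over 3053 upregulated, 0.75 over 1416 downregulated and 0.74 over 8055 genes that did not pass. The lowest median, 0.54, was that of the 790 upregulated genes with at most 3 reads in every ATRA library, and the other 2263 upregulated genes had 0.71. These 790 genes could pass the filter only through other groups, and genes silent in all groups are in none of the classes. Their median therefore cannot separate being silent under ATRA from being raised by DAC. With protein-coding transcripts alone the order was the same, with 0.76 for upregulated, 0.86 for downregulated and 0.66 for silent upregulated genes. These are descriptions of the windows and say nothing of methylation, which the libraries did not measure.

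The letters of the interferon-stimulated response element occurred in 15 of 31 windows of interferon-stimulated effectors, compared with 3.40% of all windows, and in 11 of the 21 windows of upregulated members. E2F letters occurred in 11 of 31 windows of replication genes, all 11 of them among the 20 that fell, compared with 3.19% of all windows. GATA letters (AGATAA) were found in 10.1% of the windows of silent upregulated genes and in 7.95% of all, and the limit of the filter holds here too. Single retinoid half-sites (AGGTCA or AGTTCA) were found in 1 of 16 windows of retinoid genes and in 21.2% of all. The letters of the gamma-activated site (TTCNNNGAA) were found in 2 of 4 windows of guanylate-binding protein genes and in 6.36% of all.

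Transcript types differed in their balance. Of 8784 protein-coding transcripts 2290 rose and 771 fell (median log2 fold change 0.16), and of 2961 long noncoding RNAs 676 rose and 423 fell (median 0.01). Of 4386 transcripts with retained introns 382 rose and 479 fell (median -0.14), or 381 and 298 (median -0.06) without ATRA library 9. In 1455 genes with both a protein-coding and a retained-intron transcript, the retained-intron transcript had the lower log2 fold change in 942 (64.7%). The median log2 ratio of retained-intron to coding reads was -1.72, -1.63 and -1.29 in ATRA libraries 7, 8 and 9 and -1.84, -1.87 and -1.92 in the DAC + ATRA libraries. ATRA library 9 thus held more retained-intron reads for each coding read than the other ATRA and DAC + ATRA libraries. Beside those marked above, B2M, CASP2, CD33, CDK1, CSF3R, ERVK3-1, GBP3, S100A6, TGM2 and TMEM173 were read from transcripts with retained introns. CYP26C1, IRF3, IRF9 and TDRD12 were read from transcripts subject to nonsense-mediated decay, and CDKN1A, PHGDH, SPON2 and STAT2 from transcripts without a defined coding sequence, so that none of these values is that of the coding mRNA. HTSeq by default leaves out reads that fit several features, and which setting was used for transcripts of 1 gene is not given in the sources used here, so a level may rest on a short stretch that is particular to its transcript.

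The response to DAC without ATRA was measured between the DAC and the untreated libraries, which enter the comparison above only through the filter and the shared estimate of spread. DAC changed 6485 transcripts (33.5%) against untreated cells, 4296 up and 2189 down, or 3728 up and 2977 down with scaling by library size. Since the labels give 96 h for untreated and 72 h for DAC libraries, DAC and harvest time cannot be told apart in these counts. In both settings 4256 transcripts changed in the same direction, which is 74.8% of those changed with ATRA and 65.6% of those changed without it. They were 3069 upregulated and 1187 downregulated transcripts, while 3 rose with ATRA and fell without it, and 7 did the opposite. Across the 19373 transcripts the log2 fold changes of the 2 settings had a Pearson correlation of 0.89, which is given as a description, since transcripts are not independent. Of the 1422 transcripts called only with ATRA, 65 passed the test of the difference itself, as did 71 of the 2219 called only without ATRA. For the other transcripts called in 1 setting alone, a difference between the settings was not shown.

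**Figure D4:**
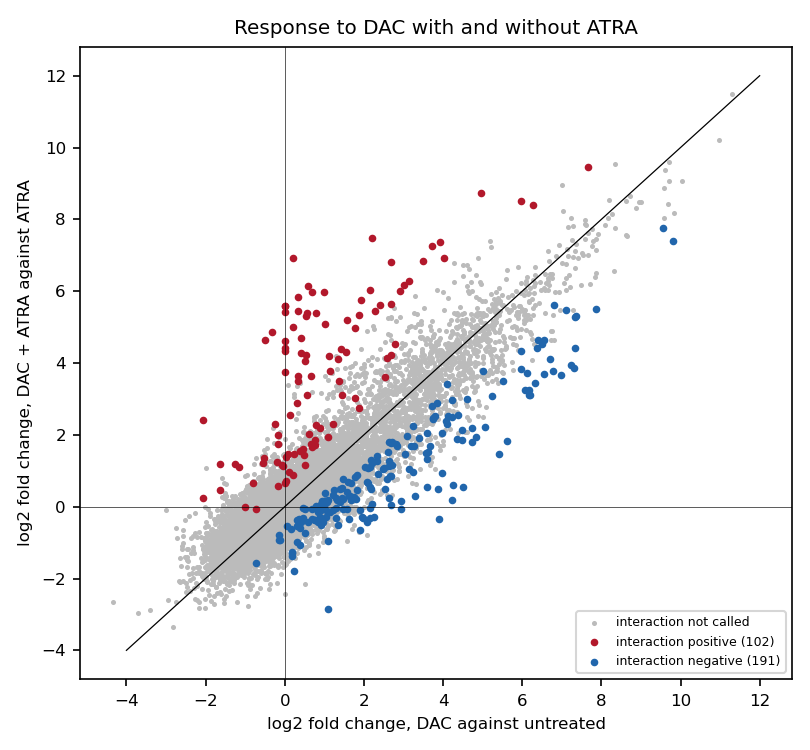
Log2 fold change of each tested transcript for DAC without ATRA (horizontal) and with ATRA (vertical), with the line of equal change. Transcripts whose response differed between the settings are coloured, 102 with a higher log2 fold change with ATRA (red) and 191 with a lower one (blue).

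The response to DAC differed between cells with and without ATRA in 293 transcripts, or 571 when ATRA library 9 was left out. A difference in harvest time of the untreated cells would enter this test too, and cannot be told apart from one that depends on ATRA. The response was higher with ATRA in 102 (0.527% of those tested) and lower in 191 (0.986%), or in 152 and 419 without ATRA library 9. edgeR gave 49 and 155 and DESeq2 51 and 175, both without DAC library 6. Of the 102, 96 were upregulated by DAC in ATRA-treated cells. Of the 191, 174 were upregulated by DAC without ATRA, and 102 of these also with it.

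CYP26A1 had the highest positive difference among the genes named here. It had 0, 0 and 0.924 reads in untreated cells, 0, 1.95 and 0 with DAC, 6.34, 4.55 and 0.832 with ATRA and 516, 604 and 437 with both drugs. The difference in log2 fold change was 6.73 ± 0.71 (limma adjusted p = 1.09e-06), with an adjusted p of 0.396 in edgeR and 0.0304 in DESeq2. High counts were thus seen only in the libraries with both drugs. IL2RA had means of 0.921, 53.4, 3.23 and 1633 in the same order, a difference of 3.78 ± 0.49 (limma adjusted p = 4.09e-05, edgeR 0.195). For GBP4 the means were 0.910, 3.02, 10.4 and 196 (difference 2.77 ± 0.60, limma adjusted p = 0.00794, edgeR 0.379), and its limma call held in only 4 of 12 fits with 1 library left out. PALM, read from a transcript with a retained intron, had means of 2.45, 4.10, 1.56 and 177, a difference of 5.57 ± 0.53 that passed in all 3 tools.

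**Figure D5:**
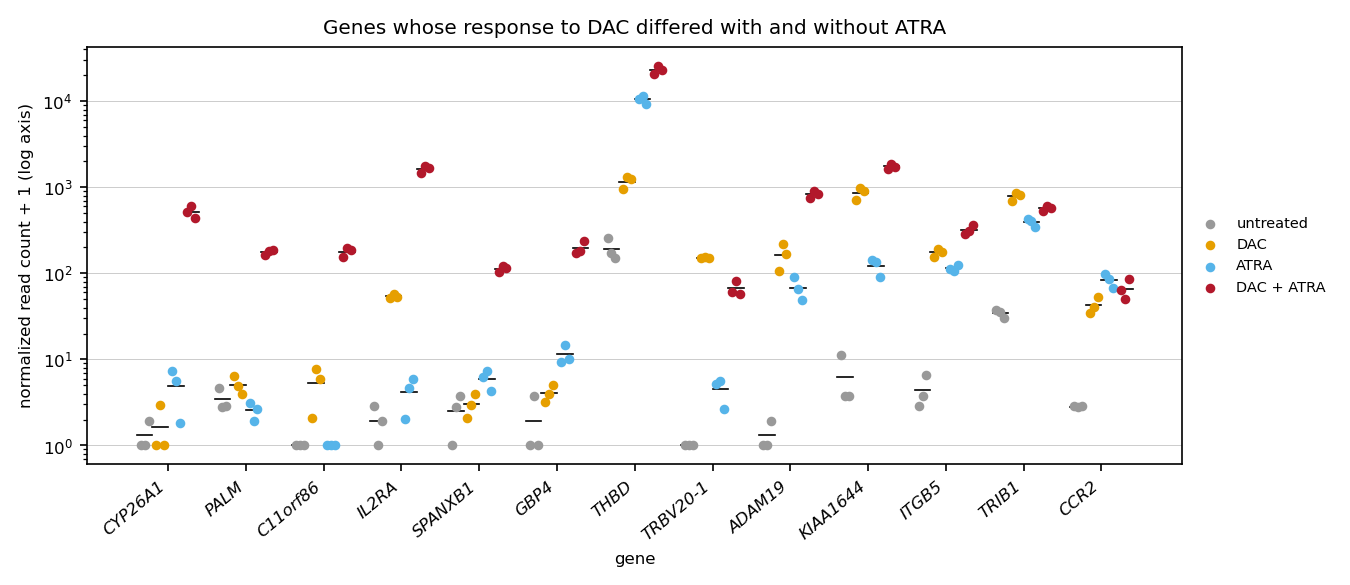
Normalized read count + 1 (log axis) of 13 genes whose response to DAC differed with and without ATRA, in all 12 libraries, with points for libraries and a bar for the group mean. CYP26A1, PALM and C11orf86 were high only with both drugs, whereas TRIB1, ITGB5 and CCR2 had higher means with either drug alone than in untreated cells.

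Several genes with negative differences had higher means with either drug alone than in untreated cells. TRIB1, a pseudokinase gene that controls C/EBP alpha, had 36.8, 34.6 and 29.6 reads in untreated cells and 698, 850.5 and 819.7 with DAC, but 423, 407 and 345 with ATRA and 535, 601 and 571 with both. The difference was -3.97 ± 0.18 (limma adjusted p = 2.53e-13), and it passed in edgeR and DESeq2 as well. The rise of TRIB1 with ATRA was called (log2 fold change 0.54), but not without DAC + ATRA library 11 (limma adjusted p = 0.012). ITGB5, an integrin chain, had means of 3.37, 174, 114 and 319.6 (difference -3.93 ± 0.31), and CCR2, a chemokine receptor of monocytes, 1.84, 41.7, 83.0 and 65.7 (difference -4.25 ± 0.35). CCR2 is an example of a gene that DAC raised alone and did not raise with ATRA (limma adjusted p = 0.276). THBD had means of 191, 1166, 10519 and 23155, so that the rise with DAC was larger in reads but smaller on the log scale when ATRA was present (difference -1.49 ± 0.22, limma adjusted p = 0.000585).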

How the data were processed

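Strand-specific, rRNA-depleted RNA-seq libraries of U937 cells were made by the authors in 4 groups of 3. Per the labels, reads were checked with FastQC, aligned with STAR to hg38, counted with HTSeq and scaled with DESeq2, with versions not given in the sources used here. The deposited signal values are read counts per transcript that the authors divided by 1 size factor per library, here called normalized read counts. Between 8042435 and 10683593 reads were recovered per library from the steps of the values. The recovered reads were whole for all libraries, but the step of DAC library 6 is too close to 1 to be checked, so that it was left out of edgeR and DESeq2.

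Transcripts of any type with at least 10 normalized reads in at least 3 of 12 libraries were tested. limma 3.58.1 (lmFit, eBayes with trend and robust) was fitted in R 4.3.3 to log2(normalized read count + 1), a scale that understates changes of low transcripts, with all 12 libraries in 1 fit that shares the spread. Adjusted p-values are Benjamini-Hochberg values over all 19373 tested transcripts, with a threshold of 0.01. Contrasts were DAC + ATRA minus ATRA, DAC minus untreated, and their difference. Errors are SE from limma. For transcripts at 0 in all ATRA libraries, folds are lower bounds against 3 reads per library. With 1 to 3 reads in total, ratios have 95% exact counting intervals. Gene symbols are those of the table, 1 transcript (that with the highest mean) stands for a symbol, and types and positions are from GENCODE 44, which held 174768 of 197782 transcripts.

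Named genes were the 12 highest and 12 lowest log2 fold changes among called transcripts with a mean of at least 100 in the higher group and no overlap, the 8 largest rises and falls in reads, the 6 highest and lowest differences between the settings, in each gene list its extremes and up to 2 abundant members, and genes the study discusses. Further list members are examples that were chosen after their values were seen. Gene lists and members were chosen with earlier results of these data known. Some genes are not reported here, and MYC, CTSG and ELANE did not pass the filter. On simulated data with 200 changed of 19373 transcripts for DAC + ATRA against ATRA, limma found 46% of 2-fold and 82% of 4-fold changes, with 2 false calls. Alternatives were edgeR 4.0.16 and DESeq2 1.42.0 on the recovered reads, other scalings, filters and pseudocounts, protein-coding transcripts only (with unmatched transcripts of protein-coding symbols), sums per symbol, only the groups compared, a threshold of 0.05 and leaving out each library. Promoters were read with Python 3.11.15.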

Additional observations from a re-analysis of the deposited data

Results flagged for a closer look

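The results below are genes named in the report, or members of its gene lists, whose response to DAC differed between cells with and without ATRA by the test of the difference itself (limma adjusted p under 0.01). The values are differences in log2 fold change, with ATRA minus without ATRA. Since the labels give a later harvest for untreated cells, harvest time cannot be told apart from ATRA in these differences. With 3 libraries per group, single libraries were not tested for standing apart. NCF1, PPFIA4, ITGB2, GBP5, CEACAM1 and PALM were read from transcripts with retained introns, and FOS and RXRA from transcripts without a defined coding sequence.

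Among receptors, adhesion and cytokine genes the response to DAC was lower with ATRA for CCR2 (-4.25), ITGB5 (-3.93), ADAM19 (-3.33), ITGB2 (-1.20), IL1B (-1.06) and IL7R (-0.92), and for the T-cell receptor segment TRBV20-1 (-3.29). CCR2 was not called in ATRA-treated cells (log2 fold change -0.35), and its change without ATRA was 3.89. The calls of IL1B and IL7R held in only 5 and 4 of 12 fits with 1 library left out.

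Among transcription factors and signalling genes the differences were -3.97 for TRIB1, -2.56 for FOS, -2.03 for CEBPE, -1.61 for TRIB2, -1.01 for BTG2 and -0.78 for RXRA. FOS held in 2 and RXRA in 3 of the 12 fits, and FOS did not pass in edgeR (adjusted p = 0.0112).

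Myeloid effector genes with a negative difference were the oxidase genes NCF1 (-2.78) and CYBB (-0.94), S100A9 (-1.30) and THBD (-1.49). NCF1 has near-identical copies and passed in neither edgeR (adjusted p = 0.019) nor DESeq2 (adjusted p = 0.0552). USP18 (-1.14), IFIT5 (-0.97), ERV3-1 (-0.92), BIK (-1.46), CPXM1 (-0.84), ZNF792 (-1.06), KIAA1644 (-3.45), PPFIA4 (-2.03) and LINC00261 (-2.87) were also lower with ATRA. Of these, KIAA1644 and PPFIA4 held in 8, IFIT5 in 10 and ZNF792 in 11 of the 12 fits, and PPFIA4 did not pass in edgeR (adjusted p = 0.0436).

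Positive differences that passed in limma, edgeR and DESeq2 were those of PALM (5.57), LINC00211 (2.16), HIST3H2A (1.92), GBP5 (0.85) and XAF1 (0.83), the last of which held in 5 of 12 fits. LINC00511 (2.55) passed in edgeR, had no adjusted p in DESeq2 and held in 8 of 12 fits.

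The other positive differences did not pass in edgeR. They were those of CYP26A1 (6.73), C11orf86 (5.28), LINC00311 (4.62), CEACAM1 (4.15), SPANXB1 (3.87), IL2RA (3.78), CD80 (3.29), LINC01267 (3.12), CXCR1 (2.96), GBP4 (2.77), LINC01513 (2.59), S1PR1 (1.79), CDKN2B (1.75) and OAS1 (1.08). Of these, OAS1 and SPANXB1 passed in DESeq2 (adjusted p = 0.0092 and 0.00739). For S1PR1 edgeR gave -0.22, the opposite sign. With 1 library left out, LINC01513 passed in 2 of 12 fits, GBP4 in 4, S1PR1 in 5, CDKN2B in 6, CXCR1 in 8, LINC01267 in 10 and OAS1 in 11. The cause of the difference between the tools was not tested.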

How the results depend on the processing

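The transcripts changed by DAC in ATRA-treated cells numbered 5688, and from 4664 to 5711 with any 1 of the 12 libraries left out. The count moved by over 1.5 times with a minimum of 50 normalized reads (3595) and with protein-coding transcripts only (3136), both of which test fewer transcripts. For DAC without ATRA the same settings gave 4090 and 3547, and leaving out 1 library 5241 to 6941. The difference between the settings (293 transcripts) was less stable, with 194 at a pseudocount of 0.1, 605 at an adjusted p of 0.05, and 206 to 571 with 1 library left out. The highest count was that without ATRA library 9, and the cause was not tested. The share of these transcripts whose response was higher with ATRA was 34.8% in limma, 24.0% in edgeR and 22.6% in DESeq2, both without DAC library 6, 40.8% in limma without that library and 21.6% in limma at a pseudocount of 0.1. Of the transcripts changed by DAC in ATRA-treated cells 65.2% rose in limma, 61.3% in edgeR with TMM scaling and 58.4% in limma with library size scaling. For DAC without ATRA, 66.2% of the changed transcripts rose, and 55.6% with library size scaling.

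Of 728 genes named or listed 522 were called, 398 of them under every alternative that tested them and 124 not under at least 1, and 0 called genes changed sign. Of the 522, only 387 were tested at a minimum of 50 reads and 349 with protein-coding transcripts only. Without ATRA library 9, 12 clustered histone genes fell instead of 8, with a list median of -0.16 instead of 0.08, 4 mitochondrially encoded genes fell instead of 0, and 5 BCL2 and caspase genes rose instead of 8. With protein-coding transcripts only, the median CpG ratio of promoters was 0.83 for all tested, 0.76 for higher, 0.86 for lower and 0.85 for uncalled transcripts, and among the higher ones 0.66 for those with at most 3 reads in every ATRA library and 0.78 for the others.

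No paired analysis was possible because the columns of the deposited table carry no replicate numbers.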

Other observations

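Some gene families that the report does not describe contained both directions. Of 48 tested clustered histone genes 18 rose and 8 fell, where 26.1% of the tested protein-coding transcripts rose and 8.78% fell. The linker histone HIST1H1C had 3505, 3637 and 2573 normalized reads with ATRA and 6482, 6989 and 6364 with DAC + ATRA (log2 fold change 1.05), and HIST1H2BK rose from a mean of 1397 to 5881. HIST1H3E was at 0 in all ATRA libraries and at 41.6, 63.2 and 54.4 with DAC + ATRA. In the other direction, HIST1H4B fell from 84.5, 71.0 and 44.9 to 9.04, 17.9 and 12.4, and HIST2H2AC from a mean of 554 to 203. Histone genes resemble each other closely, so that reads of single members are uncertain, and ATRA library 9 had the lowest value of the ATRA libraries for HIST1H4B, HIST2H2AC and HIST1H1C. Without it, 17 of the histone genes rose and 12 fell.

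Of 279 tested numbered zinc finger (ZNF) genes 72 rose and 15 fell (median log2 fold change 0.17), where 26.1% of the tested protein-coding transcripts rose and 8.78% fell. Without ATRA library 9, 62 of the ZNF genes rose and 12 fell. ZNF595 rose from 29.6, 21.8 and 19.1 to 1376, 1541 and 1621, and ZNF562 from 0 to 115, 156 and 147, at least 49.7-fold higher. ZNF519, read from a transcript without a defined coding sequence, fell from 419, 388 and 524 to 177, 169 and 137. Among protocadherins, adhesion molecules in clusters of tandem copies, 11 of 15 tested genes rose and 0 fell (70 listed), or 9 without ATRA library 9, against 26.1% and 8.78% of the tested protein-coding transcripts. PCDH12, which lies outside the clusters, had the highest read counts of those that rose, at 526, 535 and 367 with ATRA and 1284, 1608 and 1473 with DAC + ATRA.

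Of 974 listed LINC RNAs 194 were tested, of which 73 rose and 19 fell, or 68 and 16 without ATRA library 9. Of all tested transcripts 19.1% rose and 10.2% fell, so that the falls are near this share, and of long noncoding RNAs 22.8% and 14.3%. LINC RNAs silent in all groups did not pass the filter, and at least 12 tested members were at 0 in every ATRA library. LINC01287 was at 0 in the ATRA libraries and at 75.0, 93.7 and 91.4 with DAC + ATRA, at least 31.0-fold higher, and LINC01144 fell from 100.3, 107 and 109 to 43.4, 43.2 and 28.4. Of 27 mitochondrially encoded transcripts 3 rose and 0 fell, or 3 and 4 without ATRA library 9, against 19.1% and 10.2% of all tested transcripts. Among them the transfer RNA MT-TF rose from a mean of 51.7 to 116, and MT-CO1 had means of 783981 and 834749, which did not pass. By chromosome, the share of tested transcripts that rose was highest on X (23.4% of 542), against 19.1% of all tested transcripts. Chromosomes 6 (22.6% of 811) and 17 (22.5% of 1251) were close to X. The share was lowest among the autosomes on 16 (13.1% of 942), where as many fell as rose (123 each).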
